A study of Rattus norvegicus with 47 samples.

Results

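Blood of female Sprague Dawley rats with an extreme behavioural response after exposure to predator scent was compared with blood of female control rats that had no stress exposure but took the same kind of behavioural test. The extreme response group held 8 adult rats and the control group 6 adult rats, all numbered with an F in the labels, so the comparison used 14 of the 47 arrays of the series. The series also holds female rats with a minimal response, which share these controls, and the matching 3 groups of male rats. The behavioural limits of an extreme response and the interval between exposure and blood collection are not stated in the labels. In all groups RNA came from whole blood stabilised in collection tubes and depleted of globin transcripts. Each sample was hybridised once to an Illumina rat bead array. A further control array, number 2, was left out for lack of signal, with 1115 probes (4.95%) at a detection p under 0.05 and no intensity above 83.2.

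Blood RNA comes mainly from young red cells, platelets, granulocytes, monocytes and lymphocytes. Platelets have no nucleus and carry transcripts handed over by megakaryocytes, so their RNA counts as a marker of platelet content. Immediate early genes such as Fos and Egr1 are switched on within minutes by growth factors, stress kinases or handling of cells, with no new protein needed. Glucocorticoids, the main stress hormones, induce genes such as Fkbp5, Tsc22d3 and Per1 in leukocytes.

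Extreme response arrays had 5921 to 7791 detected probes (median 6742) and control arrays 6448 to 7266 (median 6794.5). The 95th percentile of raw intensity ran from 247 to 914 in the extreme response group and from 205 to 502 in the controls. The globin gene Hbb is a target of the globin depletion, so its level is no measure of red cell content here. Its normalized log2 intensities were 14.54 to 15.24 in extreme response rats and 14.93 to 15.14 in controls. Control arrays 6 and 7 stood apart from the other controls. Their mean correlation over probes with the extreme response arrays was 0.969 and 0.970. With all remaining controls, the other of the pair included, it was 0.959 and 0.960. Controls 1, 3, 4 and 5 correlated with the extreme response arrays at 0.943 to 0.952, against 0.958 to 0.962 with all remaining controls. Controls 6 and 7 had 6868 and 7266 detected probes, and the other controls 6448 to 6912. The called genes described below are therefore given with their difference against controls 6 and 7 only. For most of them, any control whose omission ended the call is named too. This pair was picked from the data and is not a group of the study.

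In the fit of all 6 groups, 505 of 9416 probes differed between extreme response and control rats at an adjusted p under 0.05 (5.36% of those tested). Of these, 309 were higher in extreme response rats (3.28%) and 196 were lower (2.08%), and 335 carried a gene symbol. The control SD was above the extreme response SD for 69.5% of the 505 probes, against 53.4% of those tested. Standard errors and p-values pool the spread of all 6 groups, so they do not measure the spread of the controls alone. The split depended on the scaling of the arrays. Scaled to the 75th percentile in place of quantile normalization, 224 probes were higher and 23 lower. With background correction, normalization and spread all taken from the groups compared alone, 122 were higher and 114 lower. Omitting 1 extreme response array left 442 to 514 calls. Omitting control 1, 3, 4 or 5 left 380, 344, 388 and 374 calls, and omitting control 6 or 7 gave 620 and 694.

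**Figure D1:**
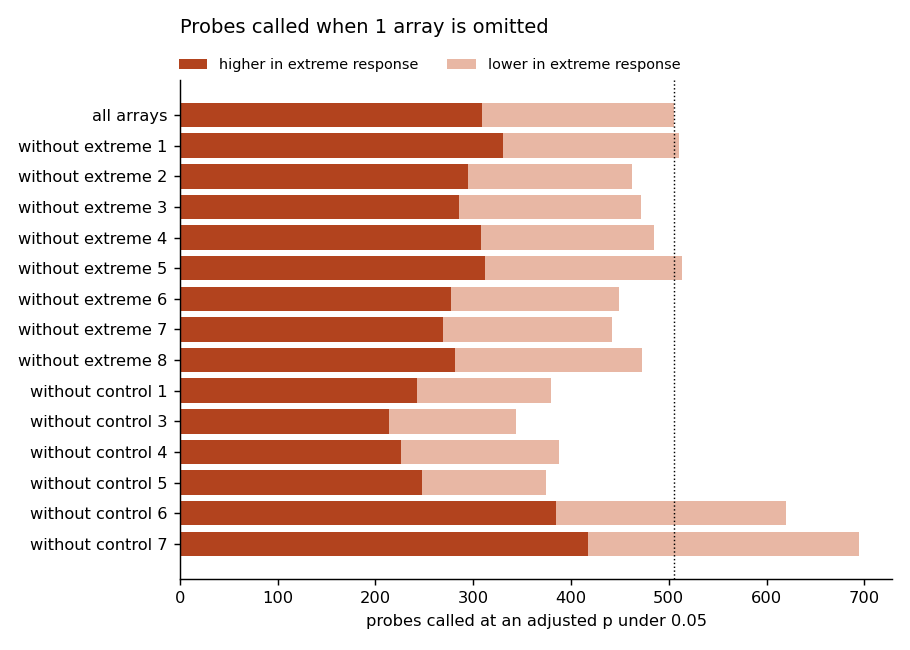
Number of probes called at an adjusted p under 0.05 with all 14 arrays (top) and with each extreme response or control array omitted in turn, split into probes higher and lower in extreme response rats; the dotted line marks the 505 calls of the full comparison. Omission of any of controls 1, 3, 4 and 5 lowered the count to 344 to 388, and omission of control 6 or 7 raised it to 620 or 694.

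Of the 505 probes, 240 (47.5%) were called in each of the 6 fits that omitted 1 control, and 76 (15.0%) in each of the 15 fits that omitted 2. Against controls 6 and 7 only, 7 probes were called (0.0743% of those tested; 702 at an unadjusted p under 0.05), and all 7 were among the 505. Against controls 1, 3, 4 and 5 only, 866 were called (9.2%). Controls 6 and 7 are among the 6 controls that gave the calls, so a shared sign is partly built in. The shares that follow are a description only, and the share over all probes was not computed. Against controls 6 and 7 only, 192 of the 196 probes called lower (98.0%) and 198 of the 309 called higher (64.1%) had the same sign. The median log2 difference of the probes called higher was 0.85 against all 6 controls and 0.21 against controls 6 and 7. For those called lower these medians were -0.68 and -0.48. Over all probes tested the medians were -0.01 and -0.01.

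**Figure D2:**
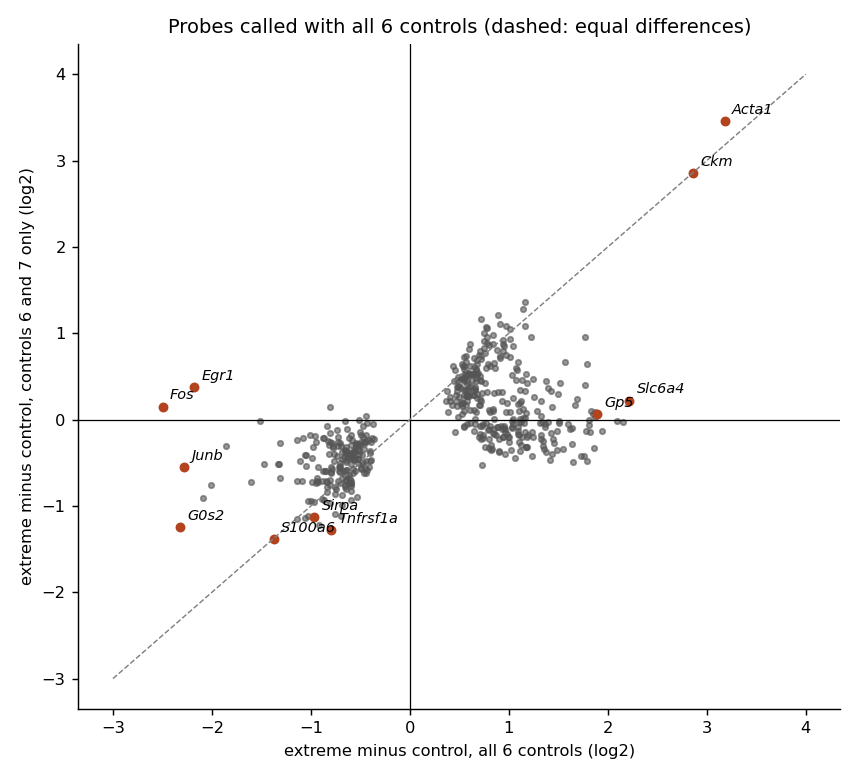
Log2 difference, extreme response minus control, of the 505 called probes against all 6 controls (horizontal axis) and against controls 6 and 7 only (vertical axis); each point is a probe, named genes are in colour and the dashed line marks equal differences. S100a6, Sirpa, Acta1 and Ckm lie near the dashed line, whereas Gp5, Slc6a4, Fos and Egr1 lie near 0 on the vertical axis.

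Platelet transcripts were the largest group of rises. Of 19 tested members of the platelet marker list, 16 rose, beside 3.28% of all probes, 0 fell and 3 did not pass (Rgs18, F2r and Selp). The median log2 difference of the list was 1.46. Of the 16, 9 were called in each of the 6 omissions of 1 control and 4 in each of the 15 omissions of 2. The rises included the adhesion receptor subunits Gp5, Gp1bb and Gp9, the adhesive protein Vwf, the chemokines Pf4 and Ppbp, the ADP receptor P2ry12, and Alox12, the platelet lipoxygenase. Against controls 6 and 7 only, Gp1bb, Gp9, Pf4, Ppbp and P2ry12 had differences of -0.05, -0.40, -0.09, -0.27 and -0.23.
Gp5, a subunit of the receptor for von Willebrand factor, gave normalized log2 intensities of 7.00, 7.45 and 7.75 (lowest, median, highest) in extreme response rats. Extreme response values are given in this order throughout. On controls 1, 3, 4, 5, 6 and 7 it was 4.51, 4.57, 4.64, 4.78, 7.47 and 7.26. Controls 6 and 7 lay inside the range of the extreme response rats and the other 4 controls well under it. Gp5 rose by 1.89 ± 0.30 on the log2 scale (standard error; 3.71-fold; adjusted p = 7e-05 by limma), and the difference was 0.07 ± 0.26 against controls 6 and 7 only. Its SD was 0.26 in extreme response rats and 1.42 in controls, a gap that the pooled standard error does not show.
Slc6a4, the serotonin transporter with which platelets take up serotonin, had log2 intensities of 8.42, 8.95 and 9.46 (lowest, median, highest) in extreme response rats. Its control values were 6.11, 4.72, 5.56, 6.61, 9.18 and 8.32 in the same array order. Control 6 was again inside the range of the extreme response rats, and control 7 just under it. Slc6a4 rose by 2.22 ± 0.38 (4.65-fold, adjusted p = 0.000186), against 0.22 ± 0.37 with controls 6 and 7 only.

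Vwf (1.85 ± 0.33, adjusted p = 0.000291) and the secreted chaperone Clu (1.94 ± 0.37, adjusted p = 0.000534) had the same layout. Their log2 differences were 0.07 and -0.13 against controls 6 and 7. The lipoxygenase Alox12 (1.82) had a difference of -0.14 against controls 6 and 7. For 3 rises outside the list, the phospholipase Pla1a (2.15), the ceramidase Acer2 (2.10) and the G protein subunit Gnaz (1.86), it was -0.02, -0.02 and -0.33. The ATP-gated channel P2rx1 (1.79 ± 0.42, adjusted p = 0.00536) had -0.48.
The mean log2 intensity of the 19 platelet markers was 8.96 to 9.76 on the extreme response arrays and 7.41, 6.39, 6.88, 8.09, 9.63 and 9.36 on the controls in array order. Against controls 6 and 7 only, the median of the list was -0.14. With the groups compared normalized and fitted alone, 3 of the 19 passed. Clu, Alox12, P2rx1, Pla1a and Gnaz did not (adjusted p of 0.0631, 0.0717, 0.128, 0.0548 and 0.081). Here, as in every bulk result below, fewer cells of a type and less RNA per cell cannot be told apart.

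Immediate early genes were the largest group of falls. Of 18 tested, 8 fell, beside 2.08% of all probes, 0 rose and 10 did not pass, among them Nr4a1 (0.21) and Atf3 (0.00). The median log2 difference was -0.47. The 8 were the transcription factors Fos, Junb, Egr1, Klf2 and Klf4, the phosphatase Dusp1, the mRNA decay factor Zfp36 and Ier2.
Promoters of 6 genes are shown, with 4 of the immediate early genes that fell beside the platelet gene Gp5 and the muscle gene Acta1. Fos had no entry among the promoters available. Whether the marked sites bear on the changes was not tested. They are RefSeq windows of build GRCr8, 250 bases before to 50 after each annotated start, in the direction of the gene. They lie at chr18:26736828-26737127 (Egr1, plus strand), chr19:40080876-40081175 (Junb, plus), chr10:17184603-17184902 (Dusp1, plus), chr1:92799059-92799358 (Zfp36, minus), chr11:83948257-83948556 (Gp5, plus) and chr19:68784145-68784444 (Acta1, minus). Capitals mark, on either strand, the cAMP response element core TGACG (21.2% of 33469 promoters of this length), its full form TGACGTCA (1.83%, which holds the core), the CArG box bound by serum response factor (1.64%) and the GATA site AGATAA (11.6%).
Egr1: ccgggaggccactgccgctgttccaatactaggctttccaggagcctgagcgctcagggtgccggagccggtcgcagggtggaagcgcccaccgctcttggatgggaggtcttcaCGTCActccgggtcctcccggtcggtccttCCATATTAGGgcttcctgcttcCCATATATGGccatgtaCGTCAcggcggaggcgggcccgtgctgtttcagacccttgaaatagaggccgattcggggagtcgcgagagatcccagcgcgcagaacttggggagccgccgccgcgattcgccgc
Junb: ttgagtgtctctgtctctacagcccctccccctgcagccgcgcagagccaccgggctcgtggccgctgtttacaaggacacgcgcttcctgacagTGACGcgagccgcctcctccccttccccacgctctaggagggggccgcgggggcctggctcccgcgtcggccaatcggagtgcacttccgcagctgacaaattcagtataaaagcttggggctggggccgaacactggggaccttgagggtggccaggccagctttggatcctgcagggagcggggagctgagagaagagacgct
Dusp1: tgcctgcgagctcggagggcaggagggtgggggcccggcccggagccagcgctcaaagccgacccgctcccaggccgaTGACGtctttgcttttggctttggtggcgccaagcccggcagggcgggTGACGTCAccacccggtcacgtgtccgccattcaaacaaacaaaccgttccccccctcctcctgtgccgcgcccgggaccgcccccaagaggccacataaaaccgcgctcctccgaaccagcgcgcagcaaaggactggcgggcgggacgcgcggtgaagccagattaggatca
Zfp36: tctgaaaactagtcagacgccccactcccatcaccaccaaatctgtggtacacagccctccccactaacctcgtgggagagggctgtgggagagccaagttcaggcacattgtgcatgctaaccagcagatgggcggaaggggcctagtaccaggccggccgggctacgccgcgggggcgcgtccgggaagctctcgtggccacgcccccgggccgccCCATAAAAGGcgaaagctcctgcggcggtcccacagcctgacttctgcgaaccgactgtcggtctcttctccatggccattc
Gp5: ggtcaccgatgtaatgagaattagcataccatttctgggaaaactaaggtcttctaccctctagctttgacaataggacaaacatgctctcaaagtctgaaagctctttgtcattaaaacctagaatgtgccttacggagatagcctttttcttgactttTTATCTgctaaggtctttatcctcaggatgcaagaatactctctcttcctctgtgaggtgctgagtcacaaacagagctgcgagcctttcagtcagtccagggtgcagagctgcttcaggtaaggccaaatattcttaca
Acta1: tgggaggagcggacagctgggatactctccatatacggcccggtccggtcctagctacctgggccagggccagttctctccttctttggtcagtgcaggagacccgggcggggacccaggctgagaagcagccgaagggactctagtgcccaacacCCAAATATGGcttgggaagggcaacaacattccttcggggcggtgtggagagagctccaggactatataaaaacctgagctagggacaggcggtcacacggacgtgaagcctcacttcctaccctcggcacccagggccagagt
CArG boxes were present in Egr1 (2, with first bases at positions -105 and -83 from the start), Zfp36 (1, at -32) and Acta1 (1, at -94). TGACG was present in Egr1 (2), Junb (1) and Dusp1 (3, of which 2 lie in the full element at -124), and AGATAA in Gp5 (1, at -90).

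Fos gave log2 intensities of 6.20, 6.61 and 7.06 (lowest, median, highest) in extreme response rats. On controls 1, 3, 4, 5, 6 and 7 it was 10.59, 10.59, 10.32, 10.21, 6.25 and 6.65. The groups overlapped through controls 6 and 7, and the other 4 controls were far above. Fos fell by 2.50 ± 0.44 (5.66-fold, adjusted p = 0.000217), and the difference was 0.15 ± 0.38 against controls 6 and 7 only.
Egr1 had log2 intensities of 4.75, 5.54 and 6.42 in extreme response rats and 9.56, 9.37, 8.81, 8.40, 5.37 and 5.01 on the controls. It fell by 2.18 ± 0.40 (4.54-fold, adjusted p = 0.000339). Its adjusted p was 0.0572 with the groups compared normalized and fitted alone. Its difference was 0.38 ± 0.28 against controls 6 and 7. Fos and Egr1 thus had small positive differences against that pair.
Junb, a partner of Fos in the AP-1 factor, separated the groups fully. Its log2 intensities were 6.16, 6.67 and 7.04 in extreme response rats and 9.88, 10.07, 9.91, 9.52, 7.13 and 7.38 on the controls. It fell by 2.28 ± 0.28 (4.86-fold, adjusted p = 6.46e-07), and the difference was -0.55 ± 0.23 against controls 6 and 7 (adjusted p = 0.525, not called).

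Dusp1 (-1.86 ± 0.31, adjusted p = 0.000155) and Zfp36 (-1.51 ± 0.29, adjusted p = 0.000427) fell with differences of -0.30 and -0.02 against controls 6 and 7. Ier2 (-0.99, adjusted p = 0.00445), Klf4 (-0.86, adjusted p = 0.011) and Klf2 (-0.73, adjusted p = 0.0165) fell too, with -0.44, -0.60 and -0.26 against controls 6 and 7. Klf4 did not pass without control 1 (-0.72, adjusted p = 0.0561), nor Klf2 without control 3 or 5 (-0.59 and -0.65, adjusted p = 0.0895 and 0.0603). Scaled to the 75th percentile, neither Klf4 (-0.56, adjusted p = 0.251) nor Klf2 (-0.41, adjusted p = 0.554) passed. The mean log2 intensity of the 18 genes was 5.99 to 6.39 on the extreme response arrays and 7.39, 7.44, 7.26, 7.13, 6.35 and 6.39 on the controls. The arrays with high immediate early genes were the controls with low platelet markers, and controls 6 and 7 matched the extreme response arrays in both; the part of platelet content in the immediate early result was not tested.

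**Figure D3:**
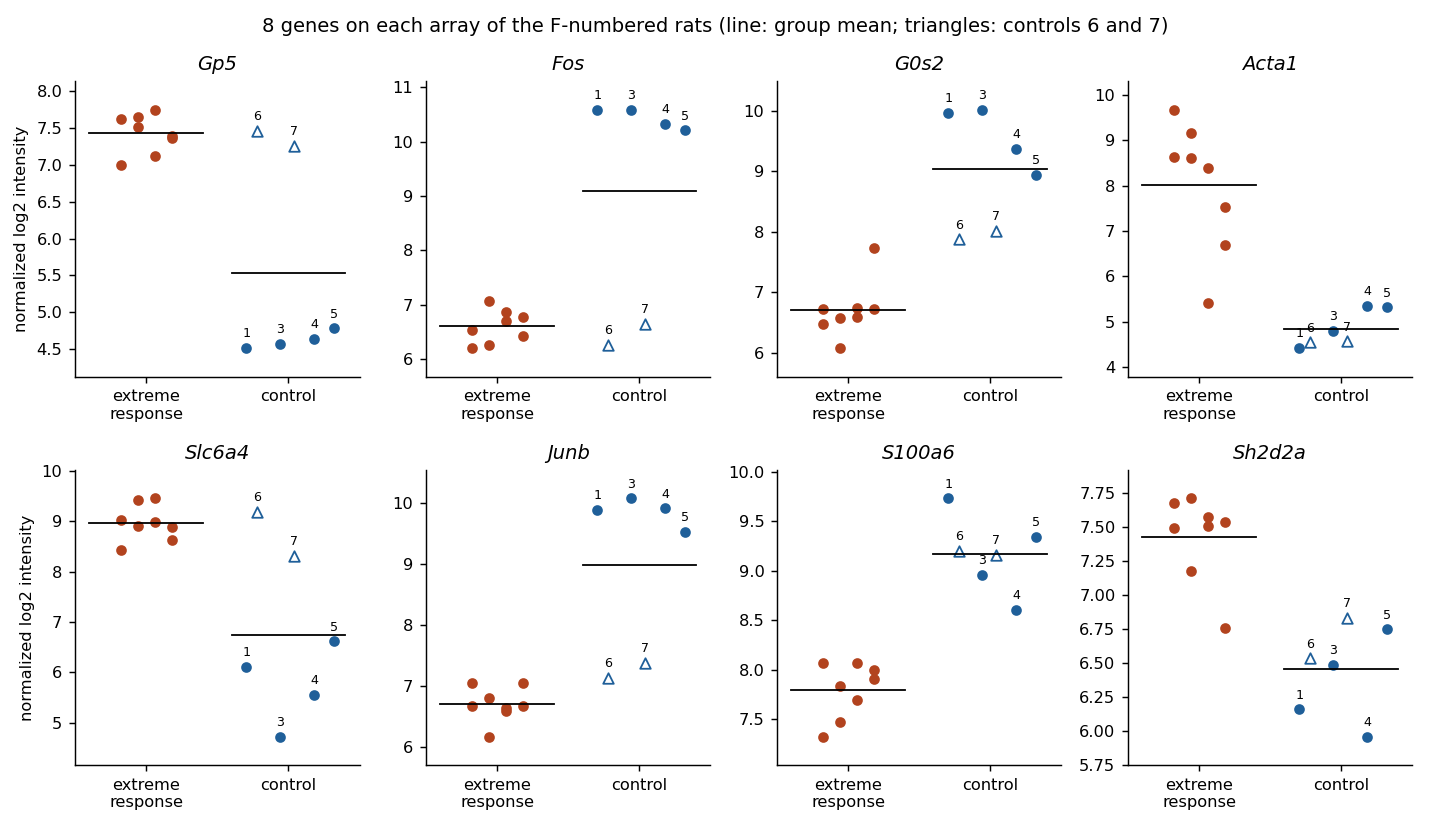
Normalized log2 intensity of 8 genes on each array, with the 8 extreme response rats left of the 6 controls; controls carry their array number, controls 6 and 7 are open triangles and lines are group means. Gp5 and Fos overlap only through controls 6 and 7 and Slc6a4 only through control 6, G0s2, Junb, S100a6 and Acta1 do not overlap at all, and in Sh2d2a the lowest extreme response array (6.75) falls within the control range.

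For 3 genes of myeloid cells that fell (G0s2, Il1b and Ccl3), controls 6 and 7 lay under the other controls and above most or all extreme response rats. Of 15 genes of the inflammation and NF-kB list, 0 rose, 3 fell (Il1b, Ccl3 and Nlrp3), beside 2.08% of all probes, and 12 did not pass. The median of the list was -0.18. The inflammasome sensor Nlrp3 (-0.63, adjusted p = 0.0306) had -0.11 against controls 6 and 7. It did not pass without control 1 or 4 (-0.55 and -0.39, adjusted p = 0.104 and 0.19), without extreme response array 2 or 7 (adjusted p = 0.0514 and 0.0529) or with scaling to the 75th percentile (-0.56, adjusted p = 0.0654).
G0s2, an inhibitor of adipose triglyceride lipase that is abundant in blood granulocytes, had log2 intensities of 6.08, 6.66 and 7.74 in extreme response rats. On controls 1, 3, 4, 5, 6 and 7 it was 9.96, 10.02, 9.37, 8.94, 7.88 and 8.02. The groups did not overlap. G0s2 fell by 2.32 ± 0.26 (5.01-fold, adjusted p = 1.53e-07) and passed in all 6 single and all 15 paired omissions of controls, and its difference was -1.24 ± 0.31 against controls 6 and 7 only (adjusted p = 0.158).
The cytokine Il1b fell by 2.01 ± 0.28 (4.03-fold, adjusted p = 6.86e-06), with log2 intensities of 7.16, 7.65 and 8.78 in extreme response rats and 10.94, 10.69, 10.16, 10.00, 8.50 and 8.63 on the controls. Only the highest extreme response array, number 8, reached the level of controls 6 and 7, against which the difference was -0.76 (adjusted p = 0.579). The chemokine Ccl3 was detected on 0 of 8 extreme response arrays and on 5 of 6 controls, and was at least 2.19-fold lower in extreme response rats (adjusted p = 5.01e-07), with the dimmest detected probe of an array as the bound. Its measured log2 means were 4.52 ± 0.09 in extreme response rats (SD, n = 8) and 6.13 ± 0.79 in controls (SD, n = 6), and the measured difference was -0.72 against controls 6 and 7.
The interferon-inducible Slfn4 (-2.09 ± 0.43, adjusted p = 0.00115) and the transcription factor Cebpb (-1.33 ± 0.24, adjusted p = 0.000247) also fell, with -0.90 and -0.52 against controls 6 and 7. Sv2b, a synaptic vesicle glycoprotein gene, fell by 1.48 ± 0.37 (adjusted p = 0.00944), had -0.51 against controls 6 and 7, and did not pass with scaling to the 75th percentile (-1.11, adjusted p = 0.155).

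A further 3 falls are grouped here because they were also called against controls 6 and 7 only. They were as large against that pair as against all 6 controls, which this choice partly builds in. S100a6, a calcium-binding protein of the S100 family, had log2 intensities of 7.32, 7.87 and 8.07 in extreme response rats. On controls 1, 3, 4, 5, 6 and 7 it was 9.73, 8.95, 8.60, 9.34, 9.20 and 9.16. Every control lay above every extreme response rat. S100a6 fell by 1.37 ± 0.20 (2.59-fold, adjusted p = 8e-06) with all controls and by 1.39 ± 0.28 with controls 6 and 7 only (adjusted p = 0.0365).
Sirpa, an inhibitory receptor of myeloid cells that binds CD47, had log2 intensities of 8.11, 8.39 and 9.29 in extreme response rats and 9.25, 9.30, 9.42, 9.47, 9.54 and 9.67 on the controls. The groups overlapped only through extreme response array 8 and control 1. Sirpa fell by 0.97 ± 0.16 (1.95-fold, adjusted p = 7.78e-05), and by 1.13 ± 0.24 with controls 6 and 7 only (adjusted p = 0.0365).
The tumour necrosis factor receptor Tnfrsf1a fell by 0.80 ± 0.20 (adjusted p = 0.00818), and by 1.28 ± 0.27 with controls 6 and 7 (adjusted p = 0.0371). Against controls 1, 3, 4 and 5 only, its difference was -0.56 and did not pass (adjusted p = 0.0993). These 3 and 4 probes with no symbol that were higher, among them ILMN_1351535 and ILMN_1355120, were the 7 called against controls 6 and 7.

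The arrays of the 2 groups did not overlap for 80 of 9416 probes (0.85%), and 68 of these were called, 39 higher and 29 lower. Among them, falls were seen in Metrnl, a secreted meteorin-like protein (-0.97 ± 0.17), Tifa, an adaptor of NF-kB signalling (-1.14 ± 0.20), Swap70, a guanine nucleotide exchange factor of B cells and myeloid cells (-1.03 ± 0.20), the ubiquitin ligase Siah2 (-0.71 ± 0.13), the chloride channel Pacc1 (-0.80 ± 0.15) and Id1, an inhibitor of helix-loop-helix factors (-1.11 ± 0.20). Adjusted p ran from 0.000188 (Metrnl) to 0.000636 (Swap70) over these 6. Their log2 differences against controls 6 and 7 only were -0.96, -1.15, -1.11, -0.73, -0.61 and -0.48 in the same order, so that Id1 lost the most.
Metrnl had log2 intensities of 7.46, 7.65 and 8.22 in extreme response rats and 8.67, 8.77, 8.59, 8.95, 8.65 and 8.79 on the controls. The 6 controls lay close together. Rises without overlap included Csk, the kinase that restrains Src family kinases (0.81 ± 0.15, adjusted p = 0.000287), and the nucleotidase-domain gene Nt5dc2 (0.91 ± 0.17, adjusted p = 0.000395). Against controls 6 and 7 they were 0.62 and 0.71. Scaled to the 75th percentile, Metrnl (-0.70), Pacc1 (-0.54), Swap70 (-0.77), Sirpa (-0.66) and Tnfrsf1a (-0.58) no longer passed, with adjusted p of 0.121 to 0.245, and S100a6, Tifa, Siah2 and Id1 still did.

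A pair of skeletal muscle transcripts rose in extreme response rats. Of 14 tested, 2 rose (Acta1 and Ckm), beside 3.28% of all probes, 0 fell and 12 did not pass. The median log2 difference of the list was 0.76. Acta1, skeletal muscle actin, had log2 intensities of 5.40, 8.50 and 9.68 in extreme response rats and 4.42, 4.80, 5.36, 5.32, 4.54 and 4.57 on the controls. The groups did not overlap, and the extreme response rats differed among themselves by far more than the controls. Acta1 rose by 3.18 ± 0.76 (9.06-fold, adjusted p = 0.0063), and by 3.46 against controls 6 and 7 only.
Ckm, muscle creatine kinase, was detected on 8 of 8 extreme response arrays and 0 of 6 controls and was at least 5.17-fold higher (adjusted p = 0.011); its log2 means were 7.36 ± 1.25 in extreme response rats (SD, n = 8) and 4.50 ± 0.09 in controls (SD, n = 6). With array weights, Acta1 (2.89, adjusted p = 0.0512) and Ckm (2.60, adjusted p = 0.0702) no longer passed, nor did Ckm in a fit to the authors' deposited log2 values (1.41, adjusted p = 0.0843) or with the larger offset (1.88, adjusted p = 0.052). Tnnt3 (troponin T of fast muscle, 1.25, adjusted p = 0.109) and Actn3 (1.34, adjusted p = 0.193) did not pass. With the groups compared normalized and fitted alone they did (1.11 and 1.21, adjusted p = 0.0172 and 0.0256), and 5 of the 14 genes were called. Ckm, Tnnt3 and Actn3 had measured differences of 2.85, 1.22 and 1.29 against controls 6 and 7 only. The mean log2 intensity of the 14 genes was 5.09 to 6.57 on the extreme response arrays and 4.77 to 4.97 on the controls, and 1 of the 14, Tnnt1, was detected on no array of either group. Whether these transcripts came from muscle in the blood sample was not tested.

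Genes induced by glucocorticoids moved both ways. Of 17 tested, 3 rose (beside 3.28% of all probes), 3 fell (beside 2.08%) and 11 did not pass, with a median of -0.02. Fkbp5, a chaperone that dampens the glucocorticoid receptor, had log2 intensities of 7.47, 8.21 and 8.51 in extreme response rats and 7.46, 7.24, 7.78, 7.36, 7.62 and 7.42 on the controls. Array 8 of the extreme response group lay within the control range and the other 7 above it. Fkbp5 rose by 0.68 ± 0.17 (1.60-fold, adjusted p = 0.00978), with 0.64 ± 0.26 against controls 6 and 7 only.
The others that rose, named after their values were seen, were the transcription factor Klf9 (0.94, adjusted p = 0.00414) and the clock gene Per1 (0.68, adjusted p = 0.0311), with 0.87 and 0.54 against controls 6 and 7. Per1 did not pass without control 1, 3 or 4 (adjusted p of 0.093, 0.0661 and 0.1) or without extreme response array 2, 3 or 7 (0.0734, 0.061 and 0.0577). Those that fell were Dusp1, which is also in the immediate early list, Cebpb and Anxa1, an anti-inflammatory phospholipid-binding protein. Dusp1 and Cebpb had -0.30 and -0.52 against controls 6 and 7. Anxa1 (-0.94 ± 0.20, adjusted p = 0.00178) had -0.71 against that pair. It did not pass with scaling to the 75th percentile (-0.67, adjusted p = 0.212). The leucine zipper gene Tsc22d3, another classical target, had a difference of 0.05 ± 0.16 (adjusted p = 0.919). Sgk1 differed by -0.49 ± 0.17 (adjusted p = 0.0811), and passed without control 6 (-0.60, adjusted p = 0.0254) or 7 (-0.57, adjusted p = 0.0391).

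Calls among markers of leukocyte types stand beside 5.36% of all probes tested. Of 17 T cell markers, 5 rose, 0 fell and 12 did not pass, with a median of 0.20 against all controls and 0.26 against controls 6 and 7. The adaptor Sh2d2a, with log2 intensities of 6.75, 7.52 and 7.71 in extreme response rats and 5.95, 6.51 and 6.83 (lowest, median, highest) in controls, rose by 0.98 ± 0.18 (1.97-fold, adjusted p = 0.000287). Only extreme response array 8 lay within the control range. The adaptor Skap1 rose by 0.67 ± 0.15 (adjusted p = 0.00284). Sh2d2a and Skap1 had 0.75 and 0.45 against controls 6 and 7 only.
Cd8b (0.54, adjusted p = 0.0123), Cd3d (0.50, adjusted p = 0.0227) and the factor Gata3 (0.76, adjusted p = 0.0397) were the other 3, with 0.47, 0.39 and 0.42 against controls 6 and 7. Cd8b did not pass without control 1 (0.47, adjusted p = 0.0526), and Cd3d not without control 1 (0.45, adjusted p = 0.0714) or 4 (0.37, adjusted p = 0.128). Gata3 did not pass without control 3, 4 or 5 (adjusted p of 0.111, 0.109 and 0.142), nor without any of extreme response arrays 2, 3, 5, 6, 7 and 8 (0.0646 to 0.0862). Scaled to the 75th percentile, Cd8b (0.76, adjusted p = 0.0511) and Gata3 (0.80, adjusted p = 0.0514) did not pass. Cd3e (0.25), Cd3g (0.02) and Cd8a (0.00) did not pass.
Of 12 markers of natural killer and cytotoxic cells, the receptor Klrd1 fell (-1.05 ± 0.19, adjusted p = 0.000276), the cathepsin Ctsw rose (0.52 ± 0.16, adjusted p = 0.0413) and 10 did not pass. Klrd1 had -0.53 and Ctsw 0.15 against controls 6 and 7 only. Ctsw did not pass with scaling to the 75th percentile (0.83, adjusted p = 0.0654), without control 1, 3 or 4 (adjusted p of 0.172, 0.0774 and 0.158), nor without any of extreme response arrays 1, 2, 3, 4, 5 and 7 (0.0514 to 0.0763).
Of 8 monocyte markers, Sirpa and the fungal receptor Clec7a fell and 6 did not pass, among them Cd14 (-0.12) and Ccr2 (0.20). Clec7a (-1.09 ± 0.29, adjusted p = 0.0142) had -0.71 against controls 6 and 7 and did not pass without control 1 (-0.95, adjusted p = 0.0596) or with scaling to the 75th percentile (-0.74, adjusted p = 0.261). Of 22 neutrophil markers, G0s2 fell and 21 did not pass, with a median of -0.21, and of -0.57 against controls 6 and 7. Of 15 B cell markers and 16 erythroid genes, 0 were called by limma, and 2 and 1 had an unadjusted p under 0.05.

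MHC class II genes, which present peptides to helper T cells, differed more against controls 6 and 7 than against all 6. Of 12 tested, 2 fell, beside 2.08% of all probes, and 10 did not pass. The median log2 difference was -0.40 against all controls and -0.79 against controls 6 and 7. Scaled to the 75th percentile, 0 were called by limma and the median was -0.18. The 2 were the peptide loading chains RT1-DMa and RT1-DMb. RT1-DMa had log2 intensities of 7.80, 8.43 and 8.69 in extreme response rats and 8.56, 8.91, 8.74, 9.09, 9.37 and 9.55 on the controls.
Controls 6 and 7 were here the highest arrays of either group. RT1-DMa fell by 0.69 ± 0.19 (1.62-fold, adjusted p = 0.0179) and did not pass without control 7 (-0.59, adjusted p = 0.0523) or with scaling to the 75th percentile (-0.41, adjusted p = 0.518). RT1-DMa had -1.12 and RT1-DMb -0.90 against controls 6 and 7 only, and against controls 1, 3, 4 and 5 only neither passed (-0.48 and -0.35, adjusted p = 0.148 and 0.242). RT1-DMb (-0.53, adjusted p = 0.0424) did not pass with scaling to the 75th percentile (-0.19, adjusted p = 0.765), without control 1, 5, 6 or 7 (adjusted p of 0.0775, 0.0826, 0.0915 and 0.107) or without extreme response array 1, 5, 6 or 7 (0.06, 0.0779, 0.0928 and 0.0585). The mean log2 intensity of the list was 7.96 to 8.33 on the extreme response arrays and 8.33, 8.26, 8.31, 8.78, 8.87 and 8.98 on the controls in array order.

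**Figure D4:**
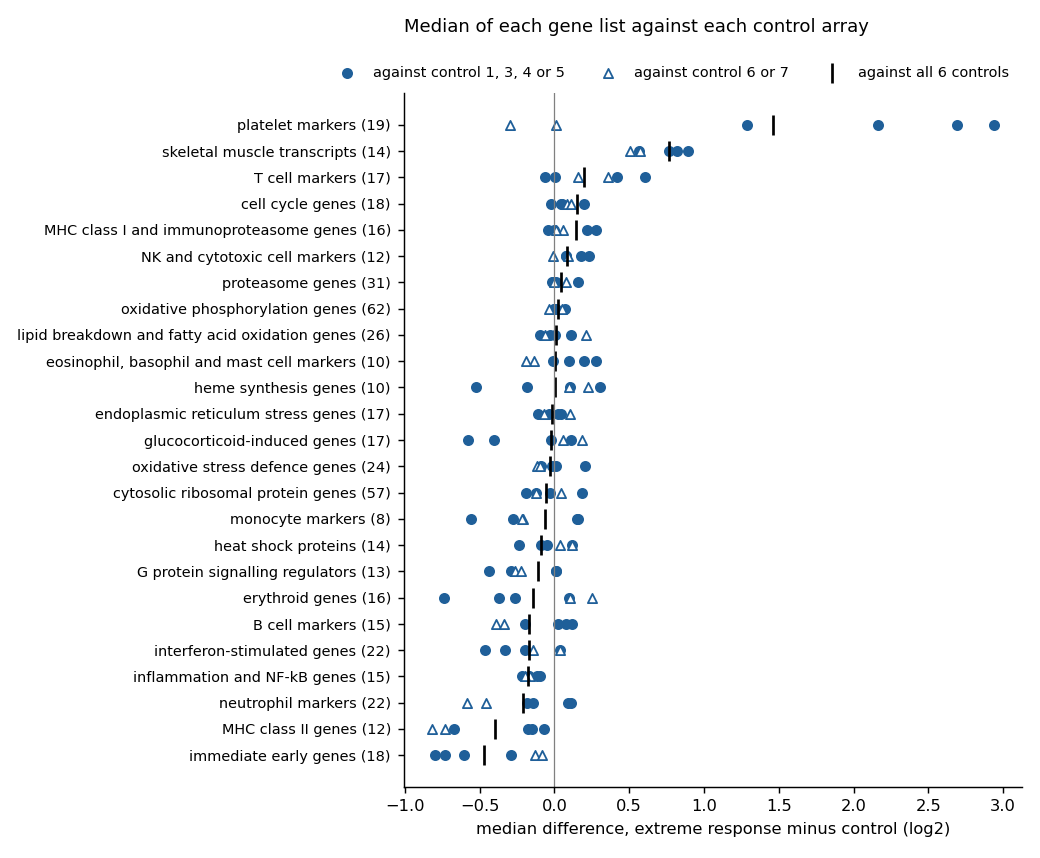
Median log2 difference of the tested members of each gene list (number in brackets), for the extreme response mean minus each single control array; filled circles are controls 1, 3, 4 and 5, open triangles controls 6 and 7, and black ticks all 6 controls. Platelet markers lie at 1.28 to 2.94 against controls 1, 3, 4 and 5 and at -0.30 and 0.01 against controls 6 and 7, while muscle transcripts are above 0 and MHC class II genes below 0 against every control.

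Members of several other lists changed, beside 5.36% of all probes. Of 13 regulators of G protein signalling, Rgs2, Rgs3 and Rgs9 fell, Rgs10 rose and 9 did not pass. Rgs2, which acts on Gq, fell by 1.31 ± 0.27 (adjusted p = 0.00109), with -0.28 against controls 6 and 7, whereas Rgs3 (-0.64 ± 0.14, adjusted p = 0.00263) had -0.81 and did not pass with scaling to the 75th percentile (-0.37, adjusted p = 0.547). Rgs9 (-0.40 ± 0.12, adjusted p = 0.0448) had -0.39 against controls 6 and 7 and did not pass without control 4, 5 or 7 (adjusted p of 0.151, 0.133 and 0.0701), without any of extreme response arrays 1, 2, 4, 5, 6, 7 and 8 (0.0537 to 0.0884) or with scaling to the 75th percentile (-0.36, adjusted p = 0.181). Rgs10 (0.83 ± 0.23, adjusted p = 0.0214) had -0.34 against controls 6 and 7 and did not pass without control 1, 3 or 4 (adjusted p of 0.0541, 0.121 and 0.137).
Hdc, the enzyme that makes histamine in basophils and mast cells, had log2 intensities of 4.71, 5.12 and 5.27 in extreme response rats and 5.86, 6.26, 6.32, 5.85, 5.93 and 6.46 on the controls, without overlap. It fell by 1.06 ± 0.29 (2.09-fold, adjusted p = 0.0183), and by 1.14 against controls 6 and 7, and was the only 1 of 10 eosinophil, basophil and mast cell markers that passed. It did not pass with array weights (-1.06, adjusted p = 0.072), with scaling to the 75th percentile (-0.82, adjusted p = 0.129), in a fit to the authors' deposited log2 values (-0.40, adjusted p = 0.0565) or without the detection filter (-1.06, adjusted p = 0.0515).
Of 22 interferon-stimulated genes, the factor Irf1 fell (-0.60, adjusted p = 0.0318) and 21 did not pass. Irf1 had -0.30 against controls 6 and 7. It did not pass with scaling to the 75th percentile (-0.26, adjusted p = 0.667), without control 1, 3 or 5 (adjusted p of 0.0807, 0.0808 and 0.103) or without extreme response array 4 or 7 (0.0703 and 0.0596). Of 24 oxidative stress genes, the plasma glutathione peroxidase Gpx3 rose (1.37 ± 0.39, adjusted p = 0.0254), with -0.09 against controls 6 and 7, and it did not pass without control 1, 3, 4 or 5 (adjusted p of 0.0631, 0.101, 0.0965 and 0.0778). None of 14 heat shock proteins, 18 cell cycle genes, 10 heme synthesis genes or 5 globins was called by limma, and 3, 1, 0 and 1 had an unadjusted p under 0.05.

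In rats with a minimal response, set against the same 6 controls, 489 probes were called (5.19%), 373 higher (3.96%) and 116 lower (1.23%). Because both comparisons share their controls, the values are only given side by side. Gp5 differed by 1.89 in extreme response and 1.86 in minimal response rats, Fos by -2.50 and -2.69, Junb by -2.28 and -2.01, and Acta1 by 3.18 and 2.76. For Sirpa the log2 differences were -0.97 in extreme response and -0.23 in minimal response rats, for Il1b -2.01 and -0.80, for Fkbp5 0.68 and 0.03, and for Swap70 -1.03 and -0.24. Sirpa, Il1b, Fkbp5 and Swap70 did not pass in the minimal response rats. The difference between the response classes was not tested here.

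Male rats with an extreme response, set against male controls, shared no array with the female comparison. Some rat numbers occur in both of these male groups, and whether they are the same animals is not stated. All female rats carry an F number and all male rats an R number, so sex cannot be told apart from cohort. In males 0 probes were called by limma (smallest adjusted p 0.0621), and 1437 had an unadjusted p under 0.05 (15.3%). Over the 9416 probes the log2 differences of the female and male comparisons correlated at r = -0.11 (Spearman -0.09), as a description over probes that are not independent. Of the 505 probes called in females, 221 (43.8%) had the same sign in males, against 47.1% of all probes tested.
The difference between the female and male comparisons was itself called for 457 probes (4.85%), 235 higher (2.5%) and 222 lower (2.36%) in females, and 255 of them were among the 505. The female comparison is a term of this difference, so the overlap is partly built in. The count of 457 moved by over 1.5 times without female control 1, 3, 4 or 7 (257, 228, 248 and 688) and without male extreme response array 5 or 6 (266 and 303). With female controls 6 and 7 only, 0 were called by limma (787 at an unadjusted p under 0.05), and with scaling to the 75th percentile 54 were, 45 higher and 9 lower.

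G0s2 averaged 7.65 ± 0.49 in male extreme response rats (SD, n = 8) and 7.41 ± 0.35 in male controls (SD, n = 8) on the log2 scale. The difference was 0.24 in males and -2.32 in females. The female minus male difference of the comparisons was -2.56 (adjusted p = 2.48e-05). Junb averaged 6.82 ± 0.33 in male extreme response rats and 6.93 ± 0.24 in male controls (SD, n = 8 each). The male control mean for Junb was thus under the lowest female control, 7.13.
The muscle transcripts Acta1 and Ckm had negative differences in males, where neither was called. Acta1 averaged 6.45 ± 1.11 in male extreme response rats and 8.05 ± 2.16 in male controls (SD, n = 8 each). The male log2 difference was -1.61 (adjusted p = 0.256, not called), and the female minus male difference was 4.79 (adjusted p = 0.00534). Ckm had a male difference of -1.84 (adjusted p = 0.165) and a female minus male difference of 4.70 (adjusted p = 0.0043). The 14 muscle genes had a median of 0.76 in females and -0.59 in males.

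**Figure D5:**
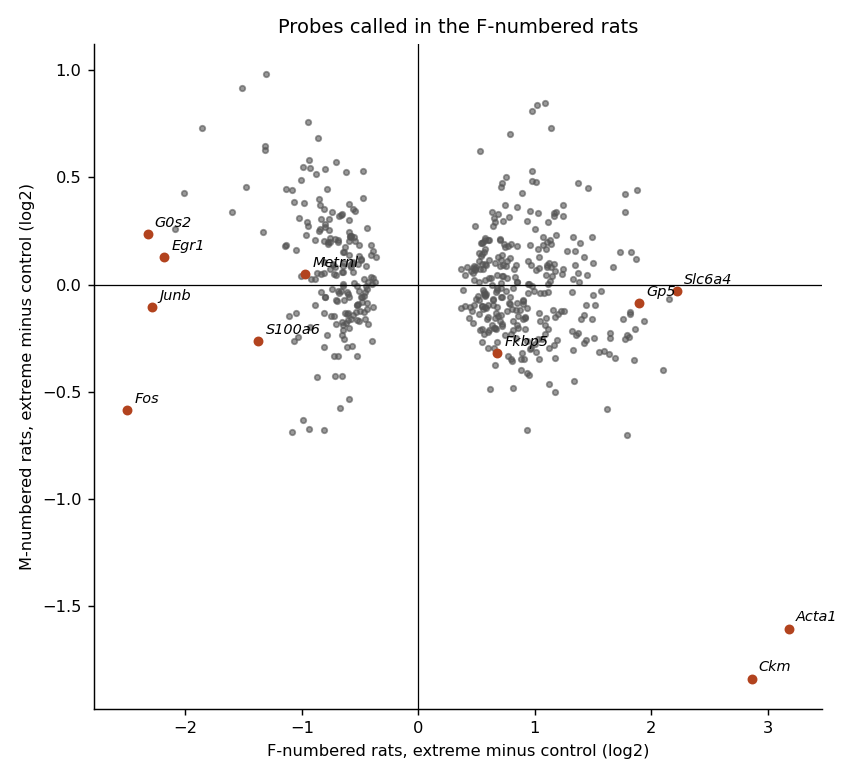
Log2 difference, extreme response minus control, of the 505 probes called in female rats (horizontal axis) and of the same probes in male rats (vertical axis); each point is a probe and named genes are in colour. Most probes lie within 0.5 of 0 in males, and Acta1 and Ckm lie at 3.18 and 2.86 in females and at -1.61 and -1.84 in males. The vertical axis names the male rats M-numbered, although their numbers carry an R.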

How the data were processed

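Per the file headers, each array has a non-normalized intensity and a detection p-value for every probe. The authors also deposited log2 values. That deposited log2 table matched, to within 5e-09, log2 intensities after quantile normalization and no background step. The labels state neither scanner software nor the placing of arrays on chips. Of 22523 probes, 13793 had 1 symbol and 8730 none in the platform annotation, and 13752 were found by Entrez identifier in the table of RefSeq genes.

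Intensities of 46 arrays were background corrected by the normexp model (offset 16), its negative controls being derived from detection p-values, quantile normalized and put on the log2 scale with limma 3.58.1 in R 4.3.3. Probes with a detection p under 0.05 on at least 7 arrays were tested (9416, of which 6786 had a symbol). For the 106 symbols with several tested probes the brightest probe is given. Means of the 6 groups were fitted with lmFit and eBayes, with 40 residual degrees of freedom, and two-sided p-values were adjusted by the Benjamini-Hochberg method over the 9416 probes. Errors are standard errors of log2 differences unless called SD, and adjusted p-values are from limma throughout. Each female sample has its own rat number in the labels. Some rat numbers recur across the male groups, and the labels do not say whether these are the same animals. All arrays were treated as independent, and the number of arrays limits the precision.

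The members, the gene lists and the rule for named genes were chosen with earlier results of these data known, and so was the attention to controls 6 and 7. By that rule the named genes were the 12 largest rises and falls called and up to 3 members of each list with the smallest p. Fkbp5, Tsc22d3 and Sgk1 were added, with the 12 called probes without overlap of smallest p. Probes called both with all controls and with controls 6 and 7 only were named too. The last were the 5 highest and lowest of the female minus male difference. Klf2, Klf4, Klf9, Ier2, Per1, Cd3d, Gata3, Rgs9, Unc93b1, Ifngr2, Alox5ap, Atp6v1b2 and Ezr were named after their values were seen. A probe undetected throughout a group gets a ratio of at least the printed size, computed from each array's dimmest detected probe. Alternatives were other backgrounds, scalings, filters and weights, a brightness covariate, a replicate block, and omission of arrays. In a further alternative the groups compared were background corrected, normalized and fitted without the other groups. Same-numbered extreme response and control arrays were not paired: their deviations correlated at -0.13 to 0.21.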

Additional observations from a re-analysis of the deposited data

Results flagged for a closer look

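On 9 of the 148 groups of arrays examined, 1 array stood far from the others of its group. Chance gives about 1 in 20, so the total is near that share. The genes were measured on the same arrays, so the flags are not independent of each other. Array 8 of the extreme response group was the array that stood apart for 6 genes. Its log2 intensity was 7.47 for Fkbp5, the lowest of its group, 7.74 for G0s2, 9.29 for Sirpa and 8.89 for Slfn4, each the highest of its group, 7.11 for Klf9 and 4.96 for Nlrp3. For Fkbp5, G0s2, Sirpa and Slfn4 it was the extreme response array nearest to the control mean. The others were array 2 for Rgs9 (4.53), array 6 for Csk (6.15) and array 4 for Pla1a (8.67). For Csk and Pla1a that array was the lowest of the extreme response group.

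For 47 of the 74 genes followed, beside 4.85% of all probes, the female comparison differed from the male comparison by a test of the difference itself. The 74 were chosen mainly by their female difference, which is a term of this test, and some by this test itself. Their share is therefore largely built in. Values are female minus male log2 differences, positive where the female difference was higher. All 47 rest on the female controls described above, and 0 probes were called by limma with controls 6 and 7 only (787 at an unadjusted p under 0.05). Among muscle genes these were Acta1 4.79, Ckm 4.70, Actn3 2.79 and Tnnt3 2.59. For platelet markers and other genes they were P2rx1 2.50, Acer2 2.49, Slc6a4 2.25, Pla1a 2.22, Vwf 2.20, Clu 2.11, Gnaz 2.06, Gp5 1.98 and Alox12 1.95. For immediate early genes they were Dusp1 -2.59, Zfp36 -2.43, Egr1 -2.31, Junb -2.18 and Klf4 -1.55. For inflammatory and myeloid genes they were G0s2 -2.56, Il1b -2.44, Slfn4 -2.35, Ccl3 -1.94, Cebpb -1.58, Anxa1 -1.52, Tifa -1.32, Sirpa -1.20, S100a6 -1.11 and Irf1 -0.84. Other negative differences were those of Rgs2 -2.29, Sv2b -1.93, Swap70 -1.34, Klrd1 -1.21, Metrnl -1.02, Id1 -0.96, Eif2ak3 -0.89, Atp6v1b2 -0.83, Siah2 -0.75, Pacc1 -0.74, Alox5ap -0.73, Ifngr2 -0.71 and Ezr -0.70. Other positive differences were those of Nt5dc2 1.25, Csk 1.02, Fkbp5 1.00, Sh2d2a 0.98, Skap1 0.88 and Psmd1 0.82.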

How the results depend on the processing

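With all controls, 505 probes were called between extreme response and control rats and 457 for the female minus male difference. In this order of comparisons, the counts were 247 and 54 with scaling to the 75th percentile. They were 236 and 220 with the groups compared normalized and fitted alone. With array weights they were 312 and 248, and with weights by group 333 and 289. They were 7 and 0 (787 at an unadjusted p under 0.05) with controls 6 and 7 only, and 866 and 925 with controls 1, 3, 4 and 5 only, which is the fit without the pair 6 and 7. Without controls 1 and 3 they were 153 and 93, without 1 and 4 178 and 105, without 1 and 5 189 and 145, without 3 and 4 177 and 96, without 3 and 5 168 and 97, and without 4 and 5 193 and 146. Without the detection filter the female minus male count was 210. Omission of any 1 array gave 344 to 694 calls for extreme response against control and 228 to 688 for the female minus male difference; the omissions of single male arrays were chosen after seeing the data. With the replicate number as a block the counts were 457 and 305; the labels do not pair the rats, and 2 of 6 extreme response arrays correlated best with the control of their own number. The deposited log2 values, the larger offset, the brightness covariate and the filter on probes detected on all arrays compared left both counts within 1.5 times.

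Among the 74 genes followed under these settings, 10 changed sign with controls 6 and 7 only: Fos 0.15, Egr1 0.38, Clu -0.13, Acer2 -0.020, Pla1a -0.023, Alox12 -0.14, Gnaz -0.33, P2rx1 -0.48, Gpx3 -0.086 and Rgs10 -0.34. Outside these 74, the platelet genes Gp1bb, Gp9, Pf4, Ppbp and P2ry12 changed sign too (-0.05, -0.40, -0.09, -0.27 and -0.23). The cause of these shifts was not tested. With the groups compared normalized and fitted alone, calls were also lost for Cd3d, Cd8b, Ctsw, Eif2ak3, Gata3, Gpx3, Klf4 and Ndufaf6. In the same setting they were lost for Nlrp3, Per1, Rgs9, Rgs10, Rpl23, RT1-DMb and Tnfrsf1a. With array weights they were lost for Cd3d, Clec7a, Ctsw, Gpx3, Irf1, Klf2, Klf4, Ndufaf6, Nlrp3, Per1, Psmd11, Rgs9, Rgs10, Rpl23, Rps25, RT1-DMb and Sv2b. Without the detection filter Ctsw, Gata3, Gpx3, Irf1, Ndufaf6, Nlrp3, Per1, Rgs9, Rgs10, Rpl23 and RT1-DMb lost theirs, with weights by group Cd3d, Ctsw, Gata3, Gpx3, Hdc, Irf1, Ndufaf6, Nlrp3, Per1, Rgs9, Rpl23 and RT1-DMb, with the brightness covariate Ctsw, Gata3 and Rgs9, and with the replicate block Ctsw, Gata3, Irf1, Ndufaf6, Nlrp3 and Rgs9. In the deposited log2 values Clec7a, Gpx3 and Rgs9 did, and Gpx3 with the larger offset and with scaling to the 75th percentile. For Ccl3 and Ckm, which were not detected on any array of 1 group, only bounds can be given.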

Other observations

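Several innate immune and membrane genes that were not described above were lower in every extreme response rat than in any control, and were picked here after their values were seen. They were Unc93b1, which carries nucleic acid-sensing Toll-like receptors to endosomes (log2 difference -0.59 ± 0.14, adjusted p = 0.00378 by limma), the interferon gamma receptor chain Ifngr2 (-0.65 ± 0.15, adjusted p = 0.0048), the leukotriene pathway protein Alox5ap (-0.60 ± 0.14, adjusted p = 0.00693), the vacuolar proton pump subunit Atp6v1b2 (-0.73 ± 0.15, adjusted p = 0.00134) and the membrane linker Ezr (-0.64 ± 0.13, adjusted p = 0.00125). Against controls 6 and 7 only their differences were -0.82, -0.79, -0.71, -0.72 and -0.47 in the same order. In males they were -0.06, 0.06, 0.14, 0.10 and 0.06. Scaled to the 75th percentile, Unc93b1 (-0.34), Ifngr2 (-0.41), Alox5ap (-0.34), Atp6v1b2 (-0.42) and Ezr (-0.33) did not pass, with adjusted p of 0.435 to 0.548.

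Housekeeping groups held calls at shares near the 5.36% of all probes tested, which is no result about these groups. Of 31 proteasome genes, Psmd1 (0.60, adjusted p = 0.00212) and Psmd11 (0.47, adjusted p = 0.0157) rose and 29 did not pass. Of 57 cytosolic ribosomal protein genes, Rps25 (-0.65, adjusted p = 0.0118) and Rpl23 (-0.66, adjusted p = 0.0355) fell and 55 did not pass. Of 62 oxidative phosphorylation genes, the complex I subunit Ndufa6 (-0.71, adjusted p = 0.00641) and the assembly factor Ndufaf6 (-0.57, adjusted p = 0.0352) fell and 60 did not pass. Their medians were 0.04, -0.06 and 0.02. Against controls 6 and 7 only, Psmd1, Psmd11, Rps25, Rpl23, Ndufa6 and Ndufaf6 had 0.27, 0.29, -0.32, -0.02, -0.27 and -0.36. Psmd11 did not pass without control 5 (adjusted p = 0.0534), Rpl23 not without control 1, 3 or 5 (0.135, 0.135 and 0.12), and Ndufaf6 not without control 1 or 3 (0.168 and 0.122). Rpl23 and Ndufaf6 also failed without single extreme response arrays (1, 2, 3 and 6 for Rpl23, and 2, 4 and 7 for Ndufaf6, adjusted p of 0.0529 to 0.0766). Of these 6 genes only Psmd11 passed with scaling to the 75th percentile. Of 17 endoplasmic reticulum stress genes, the sensor kinase Eif2ak3 (-0.69, adjusted p = 0.0137, and -0.68 against controls 6 and 7) fell and 16 did not pass. Eif2ak3 did not pass without control 5 (-0.57, adjusted p = 0.069) or with scaling to the 75th percentile (-0.49, adjusted p = 0.0865). Of 26 genes of lipid breakdown and fatty acid oxidation G0s2 alone passed. Of 16 MHC class I and immunoproteasome genes, 0 were called by limma and 1 had an unadjusted p under 0.05.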
